A study of Rattus norvegicus with 12 samples.

Results

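Heterotrimeric G proteins, adenylyl cyclases and cyclic nucleotide phosphodiesterases were followed in RNA immunoprecipitated from embryonic rat brain with antibody against Staufen2 (Stau2). Members were the probes whose gene symbol began as a G alpha, beta or gamma subunit, a numbered adenylyl cyclase or a numbered phosphodiesterase, with the alpha subunits also required to be described as G proteins. The rule used symbols and descriptions only and no measured value. It gave 57 genes of the 21843 distinct gene symbols on the array, each measured by a single probe of the 22226. They comprised 14 alpha, 5 beta and 6 gamma subunits, 9 adenylyl cyclases, 22 phosphodiesterases and Rack1. The file lists Rack1 under an older symbol shaped like that of a beta subunit, but it encodes a scaffold protein of the ribosome and was kept apart. Gnas, the stimulatory alpha subunit, matched the symbol pattern and was left out, since its probe is described by the name of its locus. That probe was not detected on any of the 12 arrays.

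In the Stau2 group, rabbit polyclonal anti-Staufen2 antibodies were added to lysates of whole brains from Sprague Dawley rat embryos at E17-E18. The preimmune group received preimmune antibody in place of these, with the same tissue, strain and stage, and measures what binds without the specific antibody. Each group had 6 Illumina BeadChip arrays hybridised with amplified, biotin-labelled RNA from the immunoprecipitates. The study asked which transcripts Staufen2 ribonucleoprotein particles hold. The tissue label of 1 sample reads P18 where the protocol gives E17-E18. Nothing in the labels says which brains or lysates an array came from, so the p-values rest on the variation among these arrays, which may be technical in part. Input RNA was not analysed here, so a level in an immunoprecipitate cannot be set against the level in the brain. The title of 1 Stau2 array carries no number, and that array is named replicate 0.

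A heterotrimeric G protein carries the signal of a membrane receptor into the cell: the receptor makes the alpha subunit exchange GDP for GTP, and alpha and the beta-gamma pair then act on separate effectors. Alpha subunits of the Gs class stimulate adenylyl cyclase, those of the Gi and Go class inhibit it or act through beta-gamma, those of the Gq class drive phospholipase C beta, and those of the G12 class act on the cytoskeleton. Adenylyl cyclases make cyclic AMP, phosphodiesterases break down cyclic AMP, cyclic GMP or both, and neurons use these enzymes to set how long a signal lasts in a dendrite or axon. Staufen2 binds double-stranded RNA and is found in the RNA granules that neurons carry into dendrites.

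Arrays of the 2 groups differed in depth, which on an array is signal over background. Background signal was between 73.9 and 86.4 array units on Stau2 arrays and between 66.6 and 79.6 on preimmune arrays. A probe was called detected on an array where the deposited detection p-value was under 0.05, and 45.4% to 48.8% of all probes were detected on Stau2 arrays, against 11.6% to 34.8% on preimmune arrays. Preimmune replicates 6 and 2 had the lowest shares, 11.6% and 17.6%. All 7 brain markers on the array, among them Tubb3, Map2, Stmn2 and Vim, were detected on every Stau2 array. Hemoglobin RNA was present as well, and raw signal of Hba-a1 averaged 12096 on Stau2 arrays and 4941 on preimmune arrays. The photoreceptor markers Crx and Sag were detected on no array. Cldn5, an endothelial gene, was detected on all 12 arrays and Cdh5 on none, and of 3 microglial genes only Aif1 was detected on every Stau2 array. The part of hemoglobin RNA and other cell types in the results was not tested. Because the lysates were of whole brain, a transcript at a high level in few cells and a transcript at a low level in many cannot be told apart.

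Raw signal was higher on average in Stau2 immunoprecipitates for all 57 members. The same held for 99.8% of all 22226 probes. Net of each array's background, the mean was higher in Stau2 immunoprecipitates for 52 of the 57 members and 78.8% of all probes. For 37 of the 57 the lowest Stau2 array lay above the highest preimmune array, a share that was not counted over all 22226 probes. Among the 35 members detected on at least 6 of the 12 arrays this held for 33, against 91.1% of all 9136 probes that passed the same filter, so the separation in raw signal was close to that of the array as a whole. On the 6 Stau2 arrays 33 members were detected throughout. Of these, 8 were also detected on all 6 preimmune arrays and 7 on none of them. There were 14 members that were not detected on any array.

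**Figure D1:**
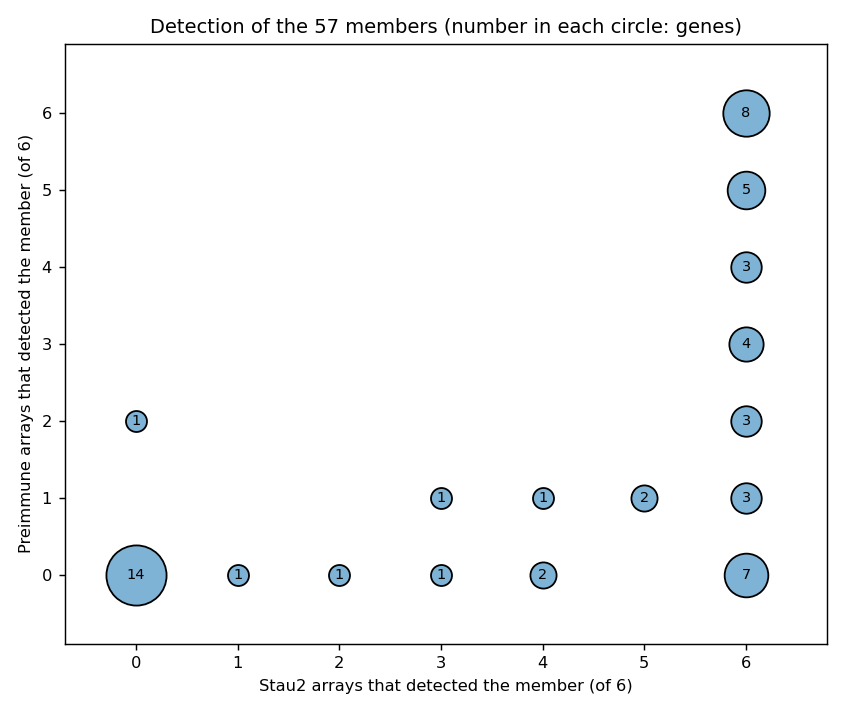
Number of Stau2 arrays (horizontal axis, of 6) and of preimmune arrays (vertical axis, of 6) that detected each of the 57 members at a detection p-value under 0.05, with the number of genes written in each circle. The right-hand column holds the 33 members detected on all 6 Stau2 arrays, and the lower left corner holds the 14 that were not detected on any array.

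To ask which members stood out from the general excess of signal, the arrays were background-corrected, quantile normalized and compared with limma over all 9136 tested probes. Differences are log2 Stau2 minus preimmune, with the standard error of the fit, relative to a scale on which every array has the same distribution of signal. Of the 35 tested members, 16 were higher, 4 were lower and 15 were not called at an adjusted p under 0.05. Of all tested probes, 32.5% were called higher and 17% were called lower, so the members held a larger share of higher calls and a smaller share of lower ones, a difference that was not tested. The median difference was 0.70 for the tested members and 0.40 for all tested probes. Where a probe was detected on no preimmune array its difference is no fold, and with such probes set at the bound that the dimmest detected signal allows, the medians were 0.33 for the members and 0.07 for all tested probes. Groups did not overlap on the normalized scale for 14 of the 35. How many of all tested probes separated in this way was not counted, so the 14 are not shown to be unusual. Members had to be detected on enough arrays to be tested, which most passed through the Stau2 arrays, so these counts do not describe all 57. Of the 16 higher members, 5 were detected on no preimmune array and were tested through their Stau2 arrays alone.

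In fits over all tested probes, the lower calls depended on quantile normalization. Gnai2, Gng12, Adcy5 and Pde9a had more raw signal on Stau2 arrays, and all 4 differences were above 0 with the arrays centred on their medians or not scaled. Of the 4, Gng12 at 0.15 was not called with median centring (adjusted p = 0.30), and the others were called higher under both. Centring on the median moved the median of all tested probes to 2.19 and leaving the arrays unscaled moved it to 2.71, and 32 and 35 of the 35 members were then called higher. Under median centring 8274 probes of all 9136 were higher and 222 lower, and unscaled 8855 were higher and 0 lower. "Higher" and "lower" below are therefore relative to the other probes on the quantile-normalized scale unless a raw signal is named.

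**Figure D2:**
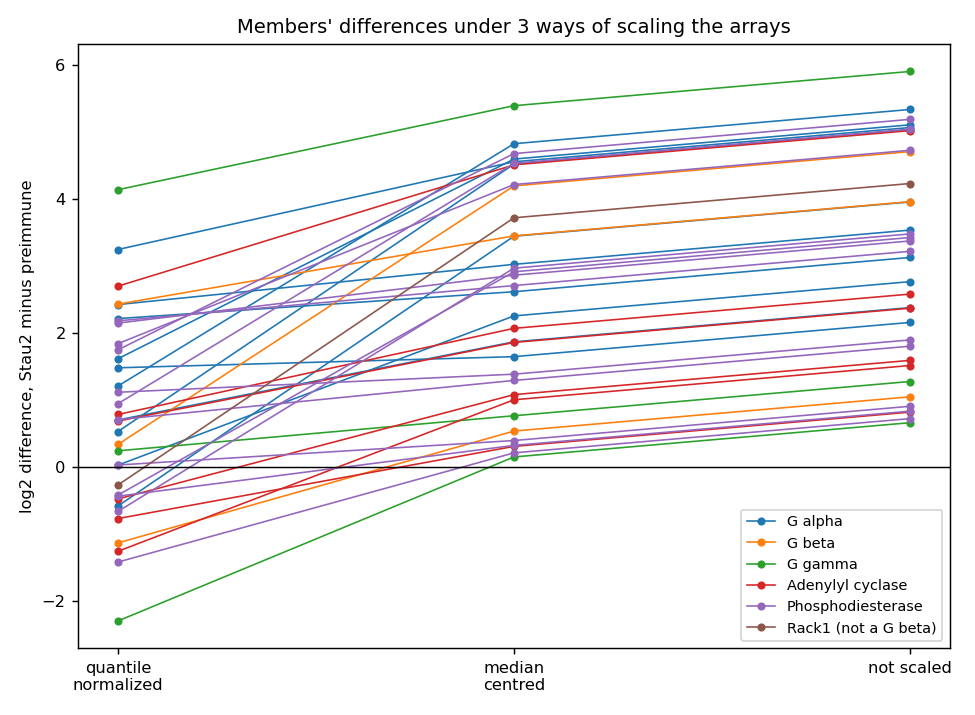
Log2 difference, Stau2 minus preimmune (vertical axis), of each of the 35 tested members after quantile normalization, after centring each array on its median and with no scaling (horizontal axis), with 1 line per gene coloured by class. All lines move up from left to right between quantile normalization and no scaling, and the members below 0 on the left are above 0 under both other scalings.

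Probes above background on every array give a comparison that rests less on dim values. A probe was taken as bright where its signal exceeded background by 3 SD of the background, and the net signal of each array was centred on its median over the bright probes. On all 12 arrays 1031 probes were bright, 4 of them members, and 27.6% of the set were higher and 45.7% lower. Median net signal of these probes was 29.6 units on preimmune replicate 6 and 42.7 on replicate 2, against 923 to 1580 on Stau2 arrays. The 12-array values therefore still rest in part on dim signal. Because preimmune replicates 2 and 6 were dim, the same was done, after seeing the data, on the 10 other arrays. That set had 3602 probes with 12 members, and 25.5% were higher and 42.9% lower. Of these 12 members 7 were higher, 1 was lower and 4 were not called. Calls of both the fit over all tested probes and the 10-array fit were shared by 5 members, with Gnai3, Gnao1, Pde10a and Pde2a higher and Pde9a lower, and 0 members were called in opposite directions.

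**Figure D3:**
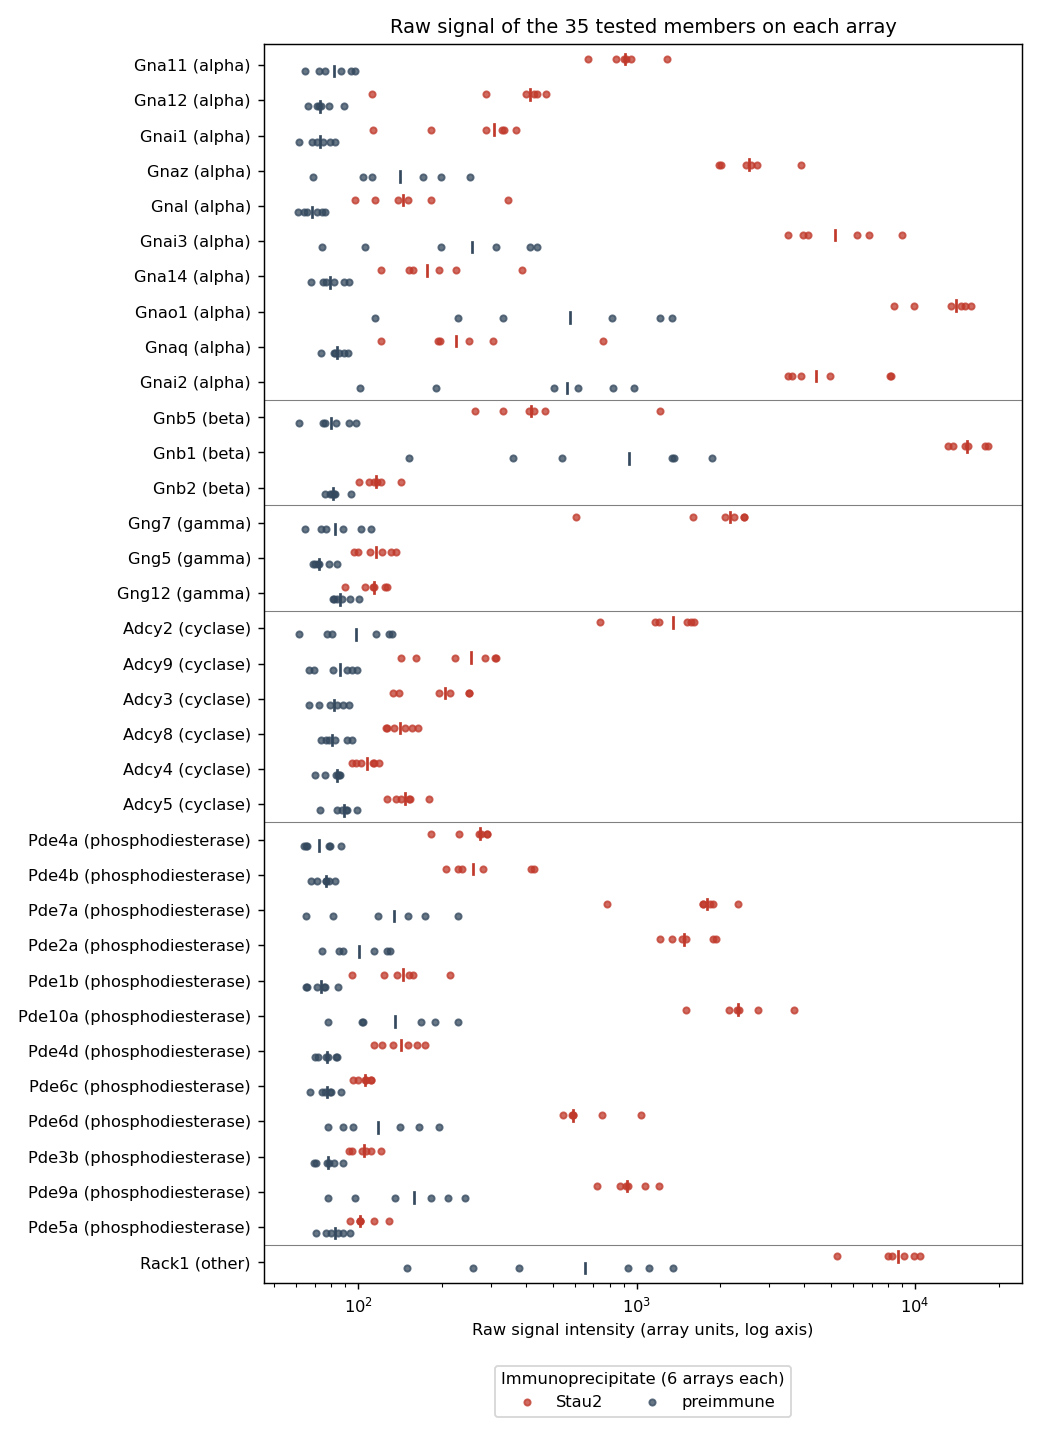
Raw signal intensity in array units (log axis) of the 35 tested members on the 6 Stau2 and 6 preimmune arrays. Points are arrays and vertical ticks are medians. Stau2 points lie to the right of preimmune points for 33 members, and Gng12 and Pde5a are the members whose raw groups overlap.

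Of the 14 alpha subunits 10 were tested, and 6 were higher, 1 lower and 3 not called, with a median difference of 1.34. Gna11, a Gq-class subunit that drives phospholipase C beta, had the largest difference among them and was detected on 3 of 6 preimmune arrays. Its raw signal was 669 to 1286 (median 909.7) on Stau2 arrays and 64.2 to 97.1 (median 81.6) on preimmune arrays. The groups did not overlap, and the normalized difference was 3.24 ± 0.48 (adjusted p = 8.3e-05). Gna12, of the G12 class that signals to the cytoskeleton, had raw signal of 112 to 473 (median 414) on Stau2 arrays and 66.3 to 89.2 (median 73.0) on preimmune arrays. Stau2 replicate 1 was the low array, at 112, and still lay above every preimmune array in raw signal. The normalized groups overlapped narrowly, and Gna12 was called higher (adjusted p = 0.00017). Only 1 of 6 preimmune arrays detected it, so no size is given. For Gnaq, the other main Gq-class subunit, raw signal was 120.3 to 754 (median 224) on Stau2 arrays and 73.3 to 92.0 (median 84.0) on preimmune arrays. Its normalized groups overlapped, and the difference of 0.03 ± 0.51 did not pass (adjusted p = 0.97). With each array left out in turn the Gnaq difference ran from -0.28 to 0.24. Gna14, also of the Gq class, was at 0.70 ± 0.36 (adjusted p = 0.12). Without preimmune replicate 2 the Gna14 difference passed at 0.88 (adjusted p = 0.049). Because 1 of 6 preimmune arrays detected Gna14, its differences are fitted values and not folds.

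The Gi and Go class held both alpha subunits of the 12-array bright set, Gnao1 and Gnai2. Gnao1, the alpha subunit abundant in neurons, had raw signal of 8438 to 15856 (median 14050.5) on Stau2 arrays and 115 to 1345 (median 575) on preimmune arrays. The raw groups did not overlap and the normalized groups did. Gnao1 was higher by 0.53 ± 0.14 over all tested probes (adjusted p = 0.0049), by 1.63 ± 0.24 in the 12-array bright set (adjusted p = 6.3e-06) and by 0.68 ± 0.22 in the 10-array set (adjusted p = 0.015). For Gnai3, which inhibits adenylyl cyclase, raw signal was 3489.8 to 8975 (median 5161) on Stau2 arrays and 74.4 to 438 (median 256) on preimmune arrays. Its normalized groups did not overlap, and it was higher by 1.21 ± 0.40 (adjusted p = 0.021) and by 0.97 ± 0.19 in the 10-array set (adjusted p = 0.00060). The Gnai3 call rested in part on Stau2 replicate 4, without which the adjusted p was 0.050 at a difference of 1.08, and it ended with array weights, at 0.41 (adjusted p = 0.062). Without the 2 preimmune arrays of lowest detection the Gnai3 difference was 0.62 (adjusted p = 0.017). Gnaz, a relative of the Gi class that pertussis toxin does not modify, had raw signal of 1981 to 3895 (median 2525) on Stau2 arrays and 68.9 to 252 (median 142) on preimmune arrays. Preimmune replicate 6 was far below the others for Gnaz. The difference of 1.61 ± 0.65 missed the threshold over all tested probes (adjusted p = 0.052), although the groups did not overlap, and without preimmune replicate 6 it was 0.87 (adjusted p = 0.0021). It also passed without preimmune replicate 2, at 1.82 (adjusted p = 0.045), and without replicate 3, at 1.79 (adjusted p = 0.044). The file's detection columns carry codes in 2 runs of consecutive numbers. With the replicate number as a block the Gnaz difference was 0.88 (adjusted p = 0.0092), with the run of codes as a block 1.61 (adjusted p = 0.033), with array weights 0.94 (adjusted p = 0.00021) and on the first run alone 0.82 (adjusted p = 0.0012). In the 10-array set Gnaz was higher by 1.24 ± 0.21 (adjusted p = 0.00013).

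On the normalized scale Gnai2 ran the other way from its relatives. Raw signal of this Gi-class subunit was 3510.5 to 8178 (median 4425) on Stau2 arrays and 101 to 981 (median 560.2) on preimmune arrays, with no overlap. After normalization it was lower, at -0.58 ± 0.22 (adjusted p = 0.036), with overlapping groups. The call ended without Stau2 replicate 0, 1, 2 or 3 or without preimmune replicate 1, 2, 4 or 5, each left out alone, with adjusted p of 0.050 to 0.084. In the 12-array bright set Gnai2 was at 0.57 ± 0.28 (adjusted p = 0.072) and in the 10-array set at -0.45 ± 0.21 (adjusted p = 0.067), neither of which passed, although without preimmune replicate 5 the 12-array value did, at 0.78 (adjusted p = 0.0071). On the arrays of the first run, 4 per group, the difference was -0.83, and on those of the second run, 2 per group, it was -0.08.

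Gnai1 and Gnal were detected on all 6 Stau2 arrays and on no preimmune array, and so were tested through their Stau2 arrays alone. Raw signal of Gnai1, the remaining inhibitory subunit of the trio, was 113 to 370.2 (median 308) on Stau2 arrays and 61.0 to 82.6 (median 72.9) on preimmune arrays. Its groups did not overlap, and it was called higher (adjusted p = 5.0e-05). Against the lowest signal that counted as detected it was at least 1.31-fold higher, a bound that was not itself tested. Gnal, the stimulatory subunit of olfactory and striatal neurons, had raw signal of 97.0 to 344 (median 145) on Stau2 arrays and 60.8 to 76.3 (median 68.3) on preimmune arrays, and was called higher (adjusted p = 0.00049). No fold is given for Gnal because the bound was below 1.

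Of the 5 beta subunits 3 were tested, and 2 were higher, 0 lower and 1 not called, with a median difference of 0.33. The median of all tested probes was 0.40, with 32.5% higher and 17% lower. Gnb1, a common beta subunit, was bright on all 12 arrays. Raw signal of Gnb1 was 13146 to 18286 (median 15324) on Stau2 arrays and 152 to 1870.2 (median 939) on preimmune arrays, without overlap. It was higher by 0.33 ± 0.12 (adjusted p = 0.033) with overlapping normalized groups, and by 1.26 ± 0.24 in the 12-array bright set (adjusted p = 8.2e-05). In the 10-array set Gnb1 was not called, at 0.41 ± 0.21 (adjusted p = 0.092). The call over all tested probes ended on leaving out Stau2 replicate 0, 1 or 4 or preimmune replicate 3, 4 or 5 in turn, with adjusted p of 0.051 to 0.082, and in the fit with replicate number as a block, at 0.31 (adjusted p = 0.059). For Gnb5, the divergent beta subunit that pairs with R7 regulators of G protein signalling, raw signal was 262 to 1209 (median 418) on Stau2 arrays and 61.4 to 97.8 (median 79.6) on preimmune arrays. The highest value came from Stau2 replicate 5 and the groups did not overlap. Gnb5 was higher by 2.43 ± 0.50 (adjusted p = 0.0010). Only 2 of 6 preimmune arrays detected it, so this size also rests largely on preimmune values near background. Gnb2 was dim in both groups, with raw signal of 101 to 142 (median 116) on Stau2 arrays and 76.0 to 94.5 (median 81.2) on preimmune arrays. Its normalized groups overlapped, and the difference of -1.13 ± 0.51 did not pass (adjusted p = 0.077). Without preimmune replicate 1 it did, at -1.47 (adjusted p = 0.019), and without preimmune replicate 6 it was -0.63 (adjusted p = 0.078).

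Gamma subunits, small prenylated partners of beta, were 6, of which 3 were tested. Gng7, known from striatal neurons, had the largest fitted difference of the tested members. Raw signal of Gng7 was 604 to 2434 (median 2159) on Stau2 arrays and 64.5 to 111 (median 82.3) on preimmune arrays. Stau2 replicate 4 stood low at 604, and the groups did not overlap. Gng7 was higher by 4.14 ± 0.60 (adjusted p = 7.2e-05). Only 2 of 6 preimmune arrays detected it, so the size of this difference rests largely on preimmune values near background. Gng12, a widely expressed gamma subunit, had the lowest difference of the tested members. Its raw signal was 89.8 to 127 (median 114) on Stau2 arrays and 81.2 to 101 (median 85.7) on preimmune arrays, and these raw groups overlapped. On the normalized scale Gng12 was lower, at -2.30 ± 0.56 (adjusted p = 0.0035) without overlap. All its raw values lay near background, and with the background estimated from every deposited detection p-value the call ended at -1.26 (adjusted p = 0.056). Without the 2 preimmune arrays of lowest detection the Gng12 difference was -1.45. Gng5, another widely expressed gamma subunit, was detected on 6 Stau2 and 0 preimmune arrays, with raw signal of 96.5 to 137 (median 116) on Stau2 arrays and 69.0 to 83.8 (median 72.2) on preimmune arrays, and was not called (adjusted p = 0.54).

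Gng10 was left untested although it was bright. Raw signal of this gamma subunit was 913 to 2281 (median 1381) on Stau2 arrays and 78.1 to 211 (median 126) on preimmune arrays, without overlap, yet the deposited detection p-values counted it as detected on 0 Stau2 and 2 preimmune arrays. On 10 of the 12 arrays its detection p-value differed by over 0.05 from that of probes with like signal. With detection read from the signal itself, Gng10 was at 0.55 ± 0.33 over all tested probes (adjusted p = 0.19). In the 10-array bright set it was higher by 0.78 ± 0.29 (adjusted p = 0.026). Such a disagreement touched 256 probes of the array, 158 of them on more than 5 arrays. Of the remaining gamma subunits, Gng11 was detected on 4 Stau2 arrays and 1 preimmune array, and Gng8 on 4 Stau2 arrays and 0 preimmune arrays.

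Of the 9 adenylyl cyclases 6 were tested, and 1 was higher, 1 lower and 4 not called, with a median difference of 0.10. Among all tested probes 32.5% were higher and 17% lower, with a median of 0.40. Adcy2, a cyclase that beta-gamma can stimulate, had raw signal of 737 to 1608 (median 1357) on Stau2 arrays and 61.4 to 133 (median 98.0) on preimmune arrays. Raw groups did not overlap, while the highest preimmune array on the normalized scale just passed the lowest Stau2 array. Adcy2 was higher by 2.70 ± 0.68 (adjusted p = 0.0041), and without the 2 preimmune arrays of lowest detection by 1.63 (adjusted p = 0.0021). For Adcy5, the main cyclase of striatal neurons and one that Gi inhibits, raw signal was 127 to 179 (median 147) on Stau2 arrays and 72.8 to 99.1 (median 88.8) on preimmune arrays. The normalized groups did not overlap, and Adcy5 was lower, at -1.26 ± 0.37 (adjusted p = 0.012). On the arrays of the first run alone the adjusted p was 0.098 at -0.97. Adcy9, a cyclase with low sensitivity to forskolin, had raw signal of 142 to 314 (median 254) on Stau2 arrays and 66.7 to 99.0 (median 86.1) on preimmune arrays. The normalized groups overlapped, as they did for Adcy3, Adcy4 and Adcy8. The Adcy9 difference was 0.78 ± 0.51 (adjusted p = 0.22). Adcy3, the cyclase of olfactory neurons and of neuronal primary cilia, had 133 to 250.5 (median 205) on Stau2 arrays and 66.8 to 92.3 (median 81.8) on preimmune arrays. Its difference was 0.68 ± 0.46 (adjusted p = 0.24), and without preimmune replicate 2 it passed at 1.01 (adjusted p = 0.048). None of the 3 others passed with all arrays kept, and Adcy4 and Adcy8 lay below 0 on the normalized scale. For Adcy4 raw signal was 95.3 to 119 (median 108) on Stau2 arrays and 69.8 to 85.8 (median 83.8) on preimmune arrays. Its difference of -0.77 ± 0.38 did not pass (adjusted p = 0.11). Because 1 preimmune array detected Adcy4, this is a fitted value and not a fold. Adcy8, which calcium and calmodulin stimulate, was at -0.48 ± 0.42 (adjusted p = 0.36). The remaining cyclases, Adcy1, Adcy6 and Adcy7, were detected on no array.

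Of the 22 phosphodiesterases 12 were tested, and 6 were higher, 1 lower and 5 not called, with a median difference of 0.82. All tested probes had a median of 0.40, with 32.5% higher and 17% lower. The phosphodiesterase median includes 4 genes detected on no preimmune array. The 3 PDE4 genes among the members, whose enzymes break down cyclic AMP and are targets of rolipram, were called higher, beside 32.5% of all tested probes. Of the 3, Pde4a and Pde4d were tested through their Stau2 arrays alone. Raw signal of Pde4a was 183 to 289 (median 274) on Stau2 arrays and 63.9 to 87.0 (median 72.0) on preimmune arrays, of which none detected it. It was called higher (adjusted p = 1.1e-05), with no overlap. Against the lowest signal that counted as detected it was at least 1.40-fold higher, a bound that was not itself tested. For Pde4b raw signal was 206 to 426 (median 258) on Stau2 arrays and 67.8 to 82.7 (median 76.5) on preimmune arrays. The groups did not overlap and Pde4b was called higher (adjusted p = 8.9e-05), with no size given because 1 of 6 preimmune arrays detected it. Pde4d had 114 to 173 (median 142) on Stau2 arrays and 70.0 to 83.8 (median 77.2) on preimmune arrays, none of which detected it. It was called higher (adjusted p = 0.014) with overlapping normalized groups, without a fold to give, and with no filter on detection the adjusted p was 0.071.

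Pde2a, Pde10a and Pde1b were the other phosphodiesterases called higher, and each acts on both cyclic nucleotides. Pde3b, which also does, was not called, and Pde1a, Pde1c, Pde3a and Pde11a, of the same kind, were not tested. Pde2a, which cyclic GMP stimulates, had raw signal of 1211 to 1925 (median 1482) on Stau2 arrays and 73.9 to 129.8 (median 101) on preimmune arrays. It did not overlap between groups and was higher by 1.75 ± 0.28 (adjusted p = 0.00018) and by 1.86 ± 0.21 in the 10-array set (adjusted p = 3.9e-06). Pde10a, the enzyme enriched in striatal neurons, had 1502 to 3678 (median 2312) on Stau2 arrays and 77.6 to 228 (median 136) on preimmune arrays. Its normalized groups overlapped, and it was higher by 0.94 ± 0.29 (adjusted p = 0.015) and by 1.30 ± 0.29 in the 10-array set (adjusted p = 0.0014). Pde1b, which calcium and calmodulin activate, had 94.7 to 214 (median 145) on Stau2 arrays and 64.8 to 84.7 (median 73.2) on preimmune arrays. No preimmune array detected it, the normalized groups did not overlap, and it was called higher with no fold to give (adjusted p = 0.00030). Pde1b was thus tested through its Stau2 arrays alone.

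Pde9a, an enzyme specific for cyclic GMP with high affinity, was the phosphodiesterase called lower. Its raw signal was 720.4 to 1206 (median 923) on Stau2 arrays and 78.1 to 242 (median 159) on preimmune arrays, the reverse of that direction. On the normalized scale the groups did not overlap, and Pde9a was lower, at -0.66 ± 0.25 (adjusted p = 0.035) and at -0.48 ± 0.15 in the 10-array set (adjusted p = 0.012). The first of these calls ended when Stau2 replicate 0, 1, 2, 3 or 4 or preimmune replicate 1, 3 or 4 was left out, with adjusted p of 0.052 to 0.076 and differences of -0.63 to -0.69. Pde7a, specific for cyclic AMP, had raw signal of 785 to 2322 (median 1785) on Stau2 arrays and 65.1 to 229 (median 134) on preimmune arrays. Preimmune arrays spread widely after normalization, from 4.43 to 9.42 log2 units, and the difference of 1.84 ± 0.76 missed the threshold (adjusted p = 0.058). Without preimmune replicate 1, 3, 4 or 5 the Pde7a difference passed, at 2.08 to 2.14 with adjusted p of 0.035 to 0.045, and without preimmune replicate 6 it was 1.15 (adjusted p = 0.077). In the 10-array set Pde7a was higher by 0.75 ± 0.19 (adjusted p = 0.0035). For Pde5a, the cyclic GMP enzyme that sildenafil inhibits, raw signal was 93.4 to 129 (median 102) on Stau2 arrays and 70.7 to 93.6 (median 82.5) on preimmune arrays, and the raw groups overlapped narrowly. Its difference of -1.42 ± 0.58 did not pass (adjusted p = 0.053), while without preimmune replicate 1, 4 or 5 it did, at -1.56 to -1.80 with adjusted p of 0.014 to 0.047. Without preimmune replicate 6 the Pde5a difference was -0.88 (adjusted p = 0.065). Pde6d, a carrier of prenylated proteins named for its binding to the retinal enzyme, was at -0.42 ± 0.33 (adjusted p = 0.30). Pde3b, which cyclic GMP inhibits, was at -0.44 ± 0.30 (adjusted p = 0.25), a fitted value and not a fold, since 1 preimmune array detected it. Pde6c, of cone photoreceptors, was detected on no preimmune array and not called (adjusted p = 0.91).

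**Figure D4:**
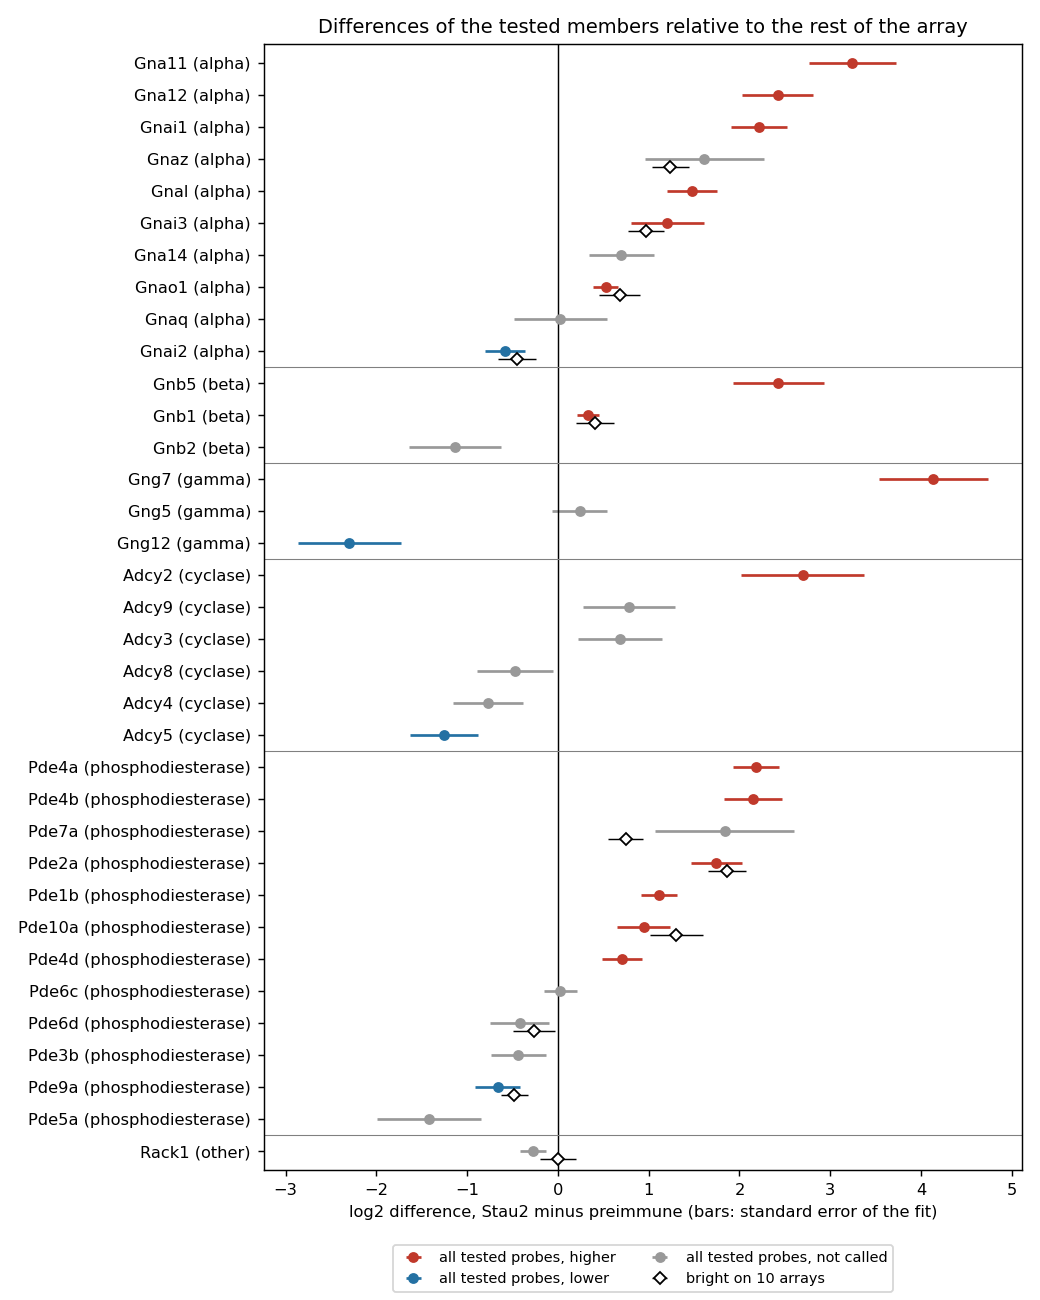
Log2 difference, Stau2 minus preimmune, of the 35 tested members by class (horizontal axis, quantile-normalized signal over all tested probes in coloured circles, and the 10-array bright set in open diamonds), with bars for the standard error of the fit. The differences run from -2.30 for Gng12 to 4.14 for Gng7. No preimmune array detected Gnai1, Gnal, Gng5, Pde1b, Pde4a, Pde4d and Pde6c, and 1 detected Gna12, Gna14, Adcy4, Pde3b and Pde4b. The circles of these genes are fitted values and not folds. Adcy3, Gnb5 and Gng7 were detected on 2 preimmune arrays each, so their sizes rest largely on preimmune values near background.

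Rack1, the ribosomal scaffold, was bright on all arrays. Raw signal was 5232 to 10403 (median 8685) on Stau2 arrays and 149.8 to 1346 (median 652) on preimmune arrays, without overlap. Over all tested probes its difference was -0.27 ± 0.14 (adjusted p = 0.13) with overlapping normalized groups. In the 12-array bright set Rack1 was higher by 0.80 ± 0.21 (adjusted p = 0.0017), and the 10-array set ended that call, at -0.0012 ± 0.20 (adjusted p = 1.00).

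Members not tested were largely at background. The 14 that were detected on no array were Gna13, Gnat1, Gnb3, Gnb4, Adcy1, Adcy6, Adcy7, Pde1c, Pde3a, Pde6a, Pde6b, Pde7b, Pde8a and Pde8b, and their Stau2 medians lay between 73.1 and 93.6 array units. Gnat1, Pde6a and Pde6b belong to rod photoreceptors and so share their tissue with the photoreceptor markers Crx and Sag, which were detected on no array. Gnat2 of cones was detected on 3 Stau2 arrays and 0 preimmune arrays and Pde6h on 4 Stau2 arrays and 0 preimmune arrays. Of the others, Gna15 was detected on 1 Stau2 array, Pde11a on 2 and Pde1a on 3, and of these only Pde1a was detected on a preimmune array, 1 in number. Without a filter on detection Pde3a and Pde6h were called lower, at -1.05 (adjusted p = 0.045) and -0.95 (adjusted p = 0.020), on signals close to background.

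Ratios within an array do not depend on scaling between arrays. For the 8 members bright on at least 11 arrays, net signal was divided by that of Gnb1 on the same array, a choice made after seeing the data, which gave 7 ratios that are described here without a test. A ratio between probes carries their unequal brightness, so only the same ratio in both groups is compared. Gnb1 was itself called higher, by 0.33 over all tested probes and by 1.26 in the 12-array bright set. In the 10-array set Gnb1 was not called, at 0.41. A gene that rose less than Gnb1 has a lower ratio on Stau2 arrays, so each ratio is relative to Gnb1 only. Gnaz was 10.5% to 25.4% (median 16.2%) of Gnb1 on Stau2 arrays and 7.27% to 10.2% (median 9.74%) on 5 preimmune arrays, with no overlap. Pde9a lay the other way, at 4.15% to 7.47% (median 5.62%) on Stau2 arrays and 7.71% to 14.0% (median 9.19%) on 5 preimmune arrays, again with no overlap. These were the 2 of the 7 ratios that separated the groups. How many other bright probes separate the groups in their ratio to Gnb1 was not counted. Pde10a was 7.78% to 20.2% (median 16.7%) of Gnb1 on Stau2 arrays and 7.23% to 9.64% (median 8.39%) on 5 preimmune arrays, overlapping through 1 Stau2 array, replicate 4. Gnai3 was 22.1% to 48.8% (median 34.5%) on Stau2 arrays and 10.7% to 27.6% (median 20.1%) on 5 preimmune arrays, while Gnai2 was 22.9% to 53.9% (median 28.3%) on Stau2 arrays and 40.3% to 92.8% (median 46.5%) on all 6 preimmune arrays. Relative to Gnb1 the Gi relatives thus had medians on opposite sides, Gnai3 above and Gnai2 below the preimmune median, and both overlapped. Gnao1 was 54.0% to 111% (median 91.2%) on Stau2 arrays and 53.3% to 87.8% (median 57.7%) on preimmune arrays, and Rack1 was 33.3% to 75.1% (median 55.5%) on Stau2 arrays and 57.6% to 98.3% (median 66.5%) on preimmune arrays, with overlap for each.

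**Figure D5:**
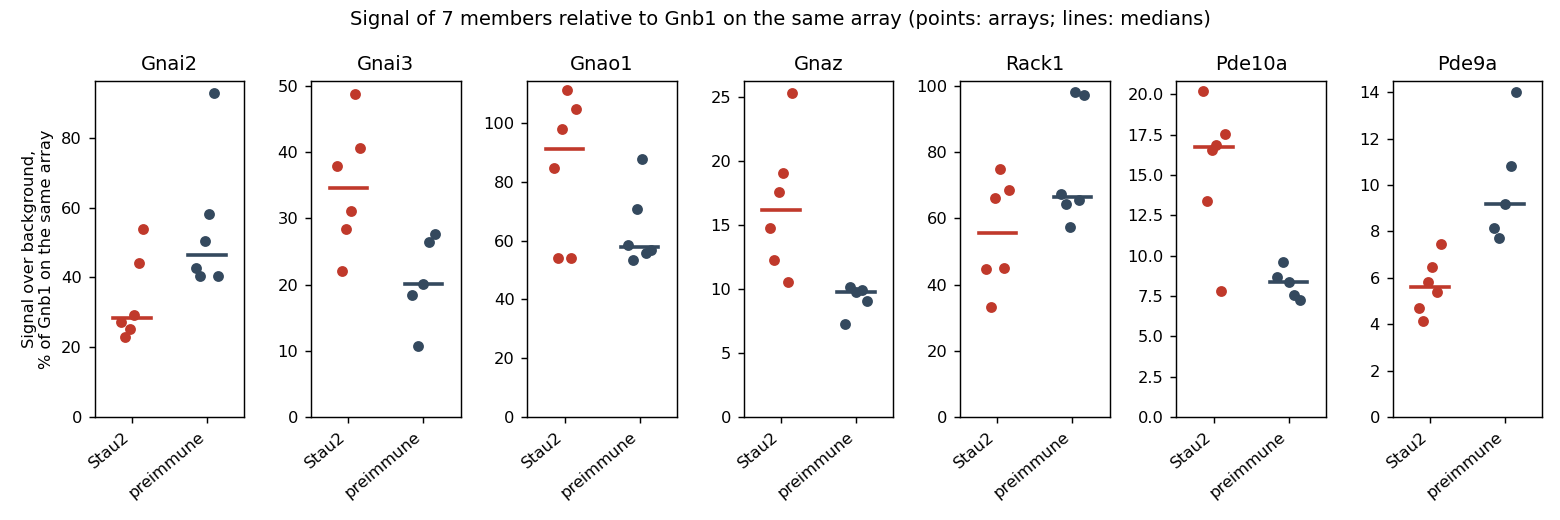
Signal over background as a percentage of Gnb1 on the same array (vertical axes, 1 panel per gene), on 6 Stau2 arrays and on the 5 or 6 preimmune arrays where the gene was bright. Points are arrays and lines are medians. Gnaz and Pde9a are the panels where the groups do not overlap.

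The labels do not say what the 2 runs of codes stand for. All 20 called members kept their direction in both runs. With 4 arrays per group in the first run 18 of the 20 passed, the exceptions being Gnb1 and Adcy5. With 2 per group in the second run 3 of the 20 passed, and there 905 of all tested probes were called higher and 49 lower. Leaving out preimmune replicates 2 and 6 together kept all 20 calls.

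Other genes of the same pathway, from the receptors to the kinases that cyclic AMP activates, were counted from lists. Of 98 such genes on the array 51 were tested, and 20 were higher, 11 lower and 20 not called, with a median difference of 0.61, beside 32.5% higher, 17% lower and a median of 0.40 over all tested probes. Among chaperones and modulators of G proteins 4 of 11 tested genes were higher and 2 lower. Ric8b, a chaperone of stimulatory alpha subunits, had the smallest adjusted p, 1.3e-06, with a mean raw signal of 437 on Stau2 arrays and 70.1 on preimmune arrays, none of which detected it. Among receptor kinases and arrestins 3 of 5 were higher and 1 lower. Grk5, a kinase that phosphorylates active receptors, was detected on no preimmune array and averaged 156 on Stau2 arrays and 66.5 on preimmune arrays (adjusted p = 3.1e-06). Like Ric8b, Grk5 was tested through its Stau2 arrays alone. Its relative Grk6 averaged 235 on Stau2 arrays and 76.1 on preimmune arrays, and was called higher (adjusted p = 8.9e-05). No size is given for Grk6 because 1 preimmune array detected it. Arrb2, an arrestin that uncouples receptors, averaged 98.8 on Stau2 arrays and 80.5 on preimmune arrays and was called lower (adjusted p = 0.0067), on signals near background that no preimmune array detected.

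Downstream of the cyclases, 3 of 6 tested genes of protein kinase A were higher and 1 lower. For its anchors the counts were 1 higher and 1 lower of 3, and for Epac, channels and other cyclic AMP effectors 2 and 1 of 4. The single tested phospholipase C beta was higher, as were 1 of 2 genes of the CREB group and 1 of 3 of cyclic GMP synthesis and its kinases, with 0 lower in these 3 groups. Among receptors coupled to these G proteins 4 of 16 were higher and 5 lower, and 33 were on the array. Htr1d, a serotonin receptor, averaged 117 on Stau2 arrays and 104 on preimmune arrays and was lower, at -3.36 ± 0.61 (adjusted p = 0.00040). Like the lower members, this receptor had more raw signal in the Stau2 group.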

How the data were processed

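RNA from 6 Stau2 and 6 preimmune immunoprecipitates was measured on Illumina rat arrays. Per the file headers, the authors deposited, for 22226 probes on 12 arrays, the raw intensity and its detection p-value; 12 columns of bead error were not used. The deposited value table is log2 of that intensity within 0.0001, although RMA is named in the submitters' processing notes, with a version not given in the sources used here. Detection p-value columns carry codes the labels do not hold and were assigned to the signal column beside them, which they followed best: 205 to 268 neighbouring probes were out of order, and 6744 or more with the column of another array.

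Background mean and SD of each array were read from its curve of detection p-value against signal (running median over 201 probes), because 256 probes had p-values that disagreed with their signal by over 0.05. Signals were corrected by normexp with an offset of 16, quantile normalized and put on the log2 scale. Probes with detection p under 0.05 on at least 6 arrays were fitted with limma 3.58.1 in R 4.3.3 (lmFit, eBayes with trend, two-sided, Benjamini-Hochberg over the 9136 tested probes, threshold 0.05). Bright probes exceeded background by 3 SD on all 12 arrays and were adjusted over that set. A bound for a probe detected on no preimmune array is the Stau2 mean against the higher, per array, of the dimmest detected signal and its own. Current symbols matched 55 members and older synonyms 2, in a RefSeq table of GRCr8 used for names.

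Members, lists and tests were chosen with earlier results of these data known. Named in full were, per class, the 3 highest and 2 lowest tested differences and every bright member; of the pathway lists, the 3 smallest adjusted p in each direction, of which 1 is not reported here; other members were added for completeness. The fits were tested on simulated data. Replicate numbers were not taken as pairs: deviations of same-numbered arrays correlated at 0.19, 0.04, 0.20, -0.09 and 0.25. Alternatives covered scaling, background, offset, detection filter, blocks, array weights and arrays left out. The number of arrays limits the precision.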

Additional observations from a re-analysis of the deposited data

Results flagged for a closer look

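Of the 70 groups of 6 arrays examined (35 tested members in each immunoprecipitate), 5 held an array far from the other 5 on the normalized log2 scale, 3 in the Stau2 group and 2 in the preimmune group. A gap of that relative size is met by chance in about 1 of 20 groups. Stau2 replicate 5 was at 8.98 for Gnb5, where the nearest array was at 7.72, and its raw signal was 1209. Stau2 replicate 4 was at 8.04 for Gng7, below the nearest array at 9.82, with a raw signal of 604. Stau2 replicate 1 was at 5.39 for Pde6c, with the nearest at 4.95. Preimmune replicate 6 was at 5.04 for Gnaz, below the nearest array at 9.17, with a raw signal of 68.9. Preimmune replicate 3 was at 4.93 for Pde1b, with the nearest at 4.52.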

How the results depend on the processing

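Scaling decided the direction of the 11 tested members below 0 in the reported fit. The 16 higher and 4 lower members became 32 and 0 with median centring and 35 and 0 with no scaling. With median centring and with no scaling the differences turned positive for Gnai2 (3.44 and 3.95), Gnb2 (0.53 and 1.05), Gng12 (0.15 and 0.66), Adcy4 (0.31 and 0.82), Adcy5 (1.00 and 1.51), Adcy8 (1.08 and 1.59), Pde3b (0.32 and 0.83), Pde5a (0.21 and 0.72), Pde6d (2.91 and 3.42), Pde9a (2.96 and 3.48) and Rack1 (3.72 and 4.23). With only probes detected on all 12 arrays 8 members were tested and 3 were higher and 3 lower, and over all 1683 probes 267 were higher and 1013 lower. Fewer probes were tested there. In the second run of codes alone, with 2 arrays per group, 4 members were higher and 0 lower, and over all probes 905 were higher and 49 lower by limma, with 3406 at an unadjusted p under 0.05. Of all probes, 2814 were lower with array weights and 2359 without the 2 preimmune arrays of lowest detection, against 1552 in the reported fit. Leaving out single arrays gave 14 to 19 higher and 2 to 4 lower members. Single differences turned sign for Gnaq (-0.22 in the second run, -0.28 to 0.24 without single arrays), Adcy8 (0.12 in the first run), Gng5 (-0.64 in the second run) and Pde6c (-0.031 in the second run, -0.067 to 0.10 without single arrays). The cause was not tested. Among bright probes, the 10-array set gave 7 higher and 1 lower member in place of 3 and 0, with Gnai2 at -0.45 and Rack1 at -0.0012; single arrays left out gave 3 to 4 and 0. In the fit over all tested probes, each called member that an alternative of that fit tested kept its direction under every one other than median centring and no scaling, and the 20 were kept as calls without background correction, with an offset of 50 and with the run of codes as a block.

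With the replicate number as a block over the 5 shared numbers 16 members were higher and 4 lower, as without it, and among bright probes 3 and 0. Gnb1 lost its call (0.31), Gnaz gained 1 (0.88, adjusted p = 0.0092) and Pde6c turned to -0.038. The block changed no other call, and the numbers were not shown to pair the arrays.

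Depth limits what can be said of dim members: preimmune arrays detected as few as 11.6% of probes, so a member near background there has no usable fold, and of a member detected on no array only that it was not detectable at this depth.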
